A study of Homo sapiens with 12 samples.

Results

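The 10 heat shock chaperone genes HSPA1A, HSPA1B, HSPB1, HSPA8, HSPH1, HSP90AA1, DNAJB1, BAG3, HSPD1 and HSPE1 were followed in poly(A) RNA of SW480, an established line of human colon adenocarcinoma cells. They were picked by symbol and are 10 of the 13554 genes listed for the knockdown of GPD1L and 10 of the 13583 listed for its overexpression. GPD1L encodes a relative of cytosolic glycerol-3-phosphate dehydrogenase. The study compared stably transfected SW480 with GPD1L knocked down (shGPD1L) against its control shNC, and stably transfected SW480 overexpressing GPD1L (OE) against its control Vector. There were 4 groups of 3 libraries. Per the titles and genotype labels, each change of GPD1L was made in a single group and set against a single control group, so effects of the construct and of the GPD1L level cannot be told apart. The labels do not state whether replicates were grown separately, so the p-values measure the spread between these libraries, which may be technical.

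Heat shock chaperones bind unfolded proteins and help them fold, keep them soluble or hand them to degradation. The transcription factor HSF1 drives most of the inducible ones: on heat, oxidants or unfolded protein it forms trimers and binds heat shock elements, inverted repeats of the unit GAA, in their promoters. Cancer cells often keep such genes active without heat. HSPA1A and HSPA1B encode the inducible HSP70 proteins, HSPA8 the constitutive HSC70, HSPB1 the small heat shock protein HSP27, and HSP90AA1 the inducible cytosolic HSP90. HSPH1, DNAJB1 and BAG3 encode proteins that work with HSP70. HSPD1 and HSPE1 encode the chaperonin pair HSP60 and HSP10, which acts in mitochondria, so that these 2 genes are not cytosolic chaperones although they share the heat shock response.

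Promoter sequences are shown because these genes are grouped by a shared regulator. The sequences are those of RefSeq on GRCh38.p14, where all 10 genes had a window of 250 bases before a transcription start. The letters searched were GAANNTTC and TTCNNGAA, each of which is its own reverse complement, so that both strands are covered, and matches may overlap. Capitals mark the GAA and TTC units of a match. HSPA1A, HSPA1B and HSPB1 are on the plus strand of chromosomes 6, 6 and 7, and the stretch of each before its first GENCODE exon is given.
HSPA1A, chr6:31815293-31815463: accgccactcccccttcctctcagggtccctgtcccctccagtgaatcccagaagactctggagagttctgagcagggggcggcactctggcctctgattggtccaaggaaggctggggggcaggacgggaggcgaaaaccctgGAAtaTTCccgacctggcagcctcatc
HSPA1B, chr6:31827488-31827734: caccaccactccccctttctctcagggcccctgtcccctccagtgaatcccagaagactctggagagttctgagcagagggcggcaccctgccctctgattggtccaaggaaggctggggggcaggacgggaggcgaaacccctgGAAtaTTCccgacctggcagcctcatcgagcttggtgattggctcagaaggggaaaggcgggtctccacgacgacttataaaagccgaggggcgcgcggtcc
HSPB1, chr7:76302423-76302543: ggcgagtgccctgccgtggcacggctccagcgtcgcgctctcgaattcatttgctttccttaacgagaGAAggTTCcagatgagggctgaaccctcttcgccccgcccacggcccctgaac
The 250 bases before the starts of HSPA1A and HSPA1B were identical at 235 of 251 aligned columns (93.6%), and both hold the same match, which begins 106 bases before the start of HSPA1A and 105 bases before that of HSPA1B. HSPA8 and HSP90AA1 are on the minus strand of chromosomes 11 and 14, and 30 bases around their matches are given, since annotated exons of some transcripts cover them.
HSPA8, chr11:123062345-123062374: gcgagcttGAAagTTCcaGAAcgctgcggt
HSPA8, chr11:123062170-123062199: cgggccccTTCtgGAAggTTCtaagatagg
HSP90AA1, chr14:102087104-102087133: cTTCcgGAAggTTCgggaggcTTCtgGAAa
HSPA8 holds a run of 3 units at 2 places, and HSP90AA1 holds a run of 3 units with a separate pair of units after it. A match was found in a window of 7 of the 10 genes (also DNAJB1 and HSPD1), against 3813 of 27305 genes with a RefSeq window and 11.5% of 8938 genes tested here. A run of 3 units (GAANNTTCNNGAA or TTCNNGAANNTTC) was found in 3 of the 10 (HSP90AA1, HSPA8 and HSPD1). The share was 0.557% of the 27305 genes and 0.414% of the 8938 genes tested here. HSPH1, BAG3 and HSPE1 had no match in these windows. The run of HSPD1 (within chr2:197500061-197500090) lies upstream of the plus-strand HSPE1 window, which begins at 197500129. The lack of a match for HSPE1 thus holds for its 250 bases only. The 10 genes were grouped by their shared regulator, so a larger share of matches than among all genes is tied to that choice. A match describes letters and is not evidence of a bound site.

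Levels are in FPKM, in which fragments are divided by transcript length and by library size, so that levels of different genes are per length. Library totals of the listed genes lay between 421714 and 444794 FPKM, and the reads behind them are unknown. GPD1L itself had 1.55, 1.26 and 2.23 FPKM in shGPD1L, against 8.68, 8.01 and 9.10 FPKM in shNC, and 22.3, 22.8 and 22.1 FPKM in OE, against 10.7, 10.2 and 11.1 FPKM in Vector, as labelled. Of 10 colon epithelial markers 8 were listed in the knockdown (KRT20 and CEACAM5 were not) and 10 in the overexpression, with KRT8 up to 2590 FPKM and EPCAM between 177 and 203 FPKM in the knockdown and between 290 and 344 FPKM in the overexpression. The summed level of the listed colon markers was 4217 to 4494 FPKM in shGPD1L and 5077 to 5439 FPKM in shNC, and 4151 to 4282 FPKM in OE and 3800.4 to 3909 FPKM in Vector. This sum was mostly KRT8, KRT18 and KRT19. Its groups were apart in both tables, and the part of this in the results was not tested. Of 16 markers of leukocytes, endothelium, fibroblasts, hepatocytes and erythroid cells, 4 were listed (CD68, CD14, COL1A1 and PDGFRB). Their summed level was 21.4 to 30.3 FPKM in shGPD1L and 29.2 to 33.5 FPKM in shNC, and 19.6 to 20.7 FPKM in OE and 19.5 to 21.7 FPKM in Vector, mostly CD68, and its part in the results was not tested. In such bulk libraries fewer expressing cells and less RNA per cell cannot be told apart. One library stood apart: on the first principal component of the knockdown, which held 41.4% of the variance, shGPD1L replicate 3 lay at 29.1 and the other 5 libraries between -12.1 and 0.32.

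Raising GPD1L went with less inducible HSP70, less HSC70 and less HSP27 message, while HSP90AA1, DNAJB1, BAG3 and HSPH1 did not pass the test. In OE, 4 of the 10 genes were called (adjusted p under 0.05, limma), all lower: HSPA1A, HSPA1B, HSPA8 and HSPB1. With the near-identical HSPA1A and HSPA1B summed into 1 gene, 3 were called. Of all 12208 genes tested there, 22.4% were called and 10.3% were called lower. The groups did not overlap, with OE lower, for 5 of the 10 (those 4 and HSPH1), against 17.6% of all genes tested. The median log2 difference of the 10 genes was -0.13, with 8 below 0 (6 with equal library totals and 9 with median-of-ratios scaling), against 0.024 over all genes tested.

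Of the 10 genes, the inducible HSP70 pair had the largest differences. HSPA1A had 13.4, 16.4 and 14.3 FPKM in OE, against 29.7, 28.9 and 27.7 FPKM in Vector. Every OE library was below every Vector library, and the mean was 14.7 ± 1.51 FPKM in OE and 28.8 ± 0.990 FPKM in Vector (SD, n = 3 each), a ratio of 0.512. On the log2(FPKM + 1) scale the difference was -0.92 (SE 0.0726, adjusted p = 0.000252), the 40th lowest of the 12208 genes tested. HSPA1B had 23.3, 29.5 and 27.1 FPKM in OE, against 52.2, 51.7 and 47.5 FPKM in Vector. Again no libraries overlapped, with means of 26.7 ± 3.14 FPKM in OE and 50.5 ± 2.57 FPKM in Vector, and the log2 difference was -0.90 (SE 0.0827, adjusted p = 0.000479), the 45th lowest.

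These 2 genes are not independent measurements. They lie 9788 bases apart on chromosome 6 (HSPA1A at 31815464 to 31817946 and HSPA1B at 31827735 to 31830255, GRCh38), and in GENCODE release 29 their coding sequences were identical at 1922 of 1926 bases (99.8%), with a longest identical run of 1709 bases. The part after the coding sequence, 264 bases in HSPA1A and 379 bases in HSPA1B, was identical at 47.8% of aligned columns. How the authors' counting shared reads between the copies is not given in the sources used here. The HSPA1A to HSPA1B ratio of FPKM varied little, with means of 0.592 ± 0.0400 in shGPD1L, 0.574 ± 0.0138 in shNC, 0.553 ± 0.0240 in OE and 0.570 ± 0.0122 in Vector. Added together the copies had 41.4 ± 4.59 FPKM in OE and 79.2 ± 3.52 FPKM in Vector, a log2 difference of -0.93 (SE 0.0773, adjusted p = 0.000341).

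HSPA8, whose product HSC70 folds new proteins and uncoats clathrin vesicles in unstressed cells, fell as well. It had 331, 379 and 369 FPKM in OE, against 610, 549 and 572 FPKM in Vector. The groups were far apart relative to their spread, with means of 359 ± 25.3 FPKM in OE and 577 ± 30.9 FPKM in Vector and a log2 difference of -0.68 (SE 0.0608, adjusted p = 0.000459). In absolute FPKM this was the widest gap among the 10 genes. HSPA8 (chromosome 11, 123057489 to 123063230, minus strand) hosts the small nucleolar RNA genes SNORD14C, SNORD14D and SNORD14E.

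HSPB1, whose product HSP27 holds unfolded proteins in a state from which HSP70 can refold them, fell by less. It had 105, 120 and 124 FPKM in OE, against 170, 167 and 145 FPKM in Vector. The highest OE library stayed below the lowest Vector library, and the log2 difference was -0.46 (SE 0.0792, adjusted p = 0.00599) with means of 116 ± 10.3 FPKM in OE and 161 ± 13.5 FPKM in Vector. HSPB1 lies on chromosome 7 (76302544 to 76304295).

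The HSP70 partners did not pass the test. HSPH1, an HSP110 that exchanges the nucleotide of HSP70, had 44.2, 43.4 and 44.4 FPKM in OE, against 48.7, 46.2 and 45.5 FPKM in Vector (log2 difference -0.085, adjusted p = 0.195). The OE libraries were all lower, by a small step. DNAJB1, the J-domain protein that starts the ATPase cycle of HSP70, had 40.7, 45.1 and 43.9 FPKM in OE, against 44.6, 44.5 and 43.9 FPKM in Vector. Those groups overlapped, and the 95% confidence interval of the log2 difference ran from -0.15 to 0.077 (estimate -0.036, adjusted p = 0.632, and 0.014 with equal library totals). BAG3, which links HSP70 to small heat shock proteins and autophagy, had 20.7, 20.2 and 21.9 FPKM in OE, against 22.0, 22.9 and 20.1 FPKM in Vector. These groups overlapped too, with a log2 difference of -0.045 (adjusted p = 0.635, and 0.0044 with equal library totals).

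HSP90AA1 had 309, 310 and 300 FPKM in OE, against 309, 298 and 305 FPKM in Vector. The groups overlapped almost entirely, the log2 difference was 0.011 (adjusted p = 0.857, and -0.0091 with median-of-ratios scaling), and its 95% confidence interval of -0.073 to 0.094 leaves out a change of the size seen for HSPA1A, HSPA1B, HSPA8 or HSPB1. HSPA8 was called lower while HSP90AA1 was not, and whether these 2 genes differ in their change was not tested. Any part of the promoter matches shown above in these changes was not tested either.

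The mitochondrial pair did not pass the test either. HSPD1 had 458, 443 and 438 FPKM in OE, against 427, 399 and 411 FPKM in Vector. All OE libraries were above all Vector libraries, and the log2 difference was 0.11 (SE 0.0404, adjusted p = 0.0748). It was called with equal library totals (0.17, adjusted p = 0.0206) and with quantile normalization (0.17, adjusted p = 0.0308), the only one of the 10 whose call in OE differed between the scalings run. HSPE1 had 34.8, 41.6 and 47.8 FPKM in OE, against 46.0, 49.5 and 43.1 FPKM in Vector, groups that overlapped (log2 difference -0.17, adjusted p = 0.285). Without OE replicate 1 it was -0.049 and without OE replicate 3 -0.27, neither called (adjusted p = 0.704 and 0.0744). HSPD1 and HSPE1 are transcribed in opposite directions on chromosome 2, and in GENCODE the span of HSPD1 covers all 3464 bases of HSPE1. Strandedness is not stated, so reads of the overlap cannot be assigned with certainty, and the same holds for DNAJB1, which overlaps TECR on the opposite strand by 12686 bases. HSPE1 also shares its strand with the read-through gene HSPE1-MOB4, listed for the knockdown at 0 in 3 of the 6 libraries and at up to 2.84 FPKM.

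**Figure D1:**
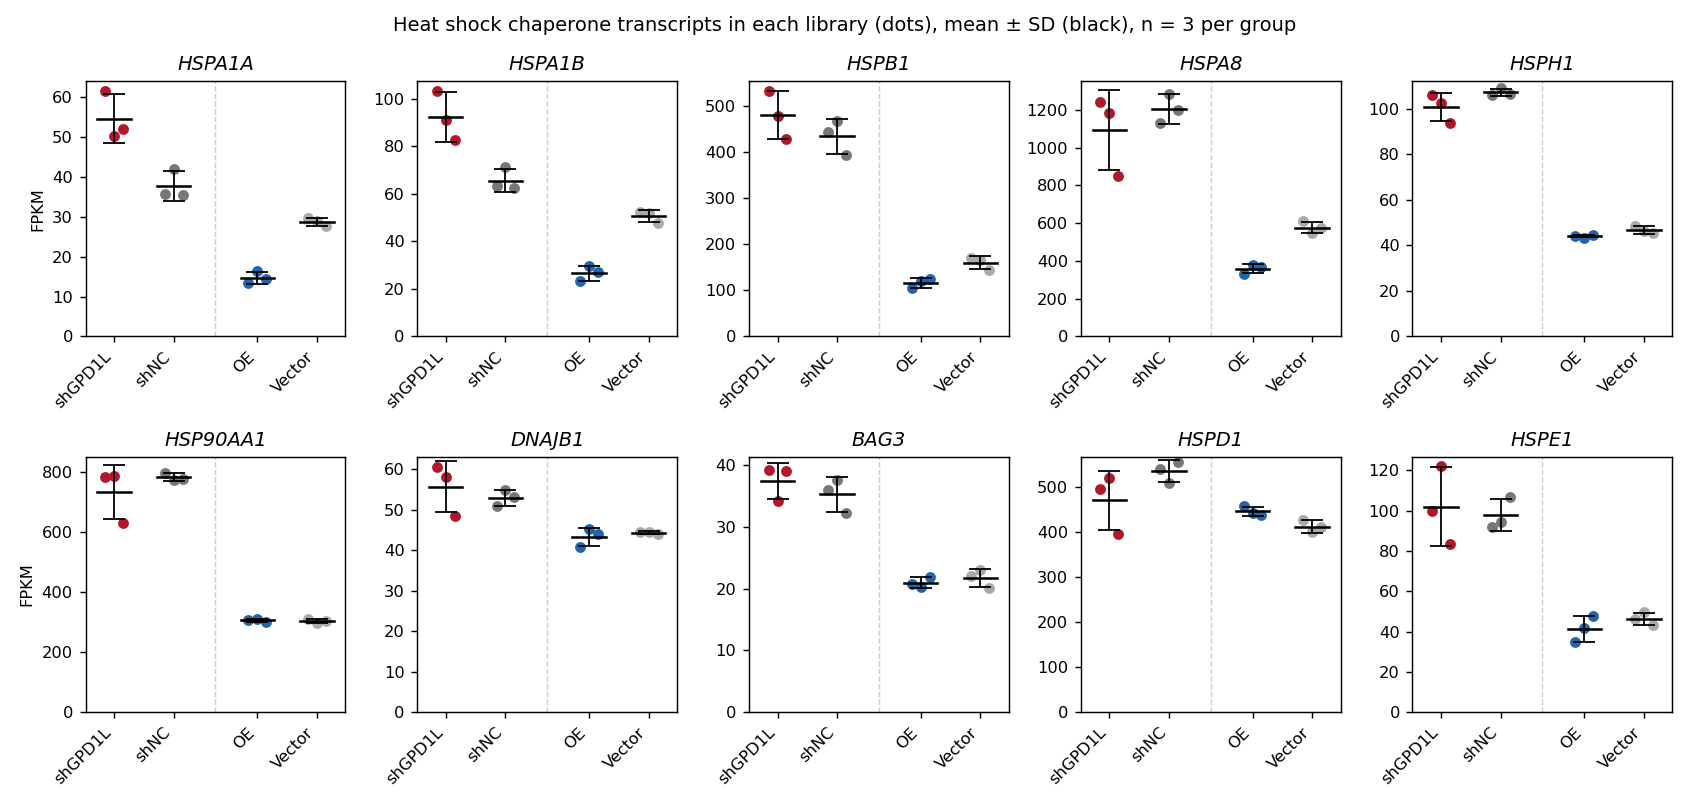
FPKM of each of the 10 chaperone genes (vertical axes from 0) in every library of the groups shGPD1L, shNC, OE and Vector, with dots for libraries and black bars for the mean ± SD (n = 3 per group); the dashed line parts the 2 tables. HSPA1A, HSPA1B, HSPA8 and HSPB1 lie lower in all OE libraries than in all Vector libraries, and HSPA1A and HSPA1B lie higher in all shGPD1L libraries than in all shNC libraries.

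Lowering GPD1L went with higher values of both inducible HSP70 genes, but with all libraries 0 of the 10 genes passed the test (adjusted p under 0.05, limma). Over all 12156 genes tested, 0.592% were called. HSPA1A and HSPA1B had an unadjusted p under 0.05 with shGPD1L higher (2 of 10, against 6.04% of all genes tested in that direction), and they were also the 2 of 10 whose shGPD1L libraries were all above all shNC libraries (against 9.54%). As near-identical copies these 2 are not separate hits. The median log2 difference of the 10 genes was 0.056, with 6 above 0, against -0.036 over all genes tested.

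HSPA1A had 61.6, 50.1 and 51.9 FPKM in shGPD1L, against 35.7, 41.9 and 35.4 FPKM in shNC. No libraries overlapped, and the mean was 54.5 ± 6.16 FPKM in shGPD1L and 37.7 ± 3.69 FPKM in shNC, a ratio of 1.45. The log2 difference was 0.52 (SE 0.108, 95% confidence interval 0.27 to 0.77, adjusted p = 0.0874), the 76th highest of 12156. HSPA1B had 103, 91.0 and 82.4 FPKM in shGPD1L, against 63.3, 71.1 and 62.2 FPKM in shNC. Its groups were apart too, with means of 92.3 ± 10.5 FPKM in shGPD1L and 65.5 ± 4.83 FPKM in shNC and a log2 difference of 0.48 (SE 0.104, adjusted p = 0.0955). The copies added together gave 147 ± 16.1 FPKM in shGPD1L and 103 ± 8.52 FPKM in shNC (log2 difference 0.50, adjusted p = 0.0874).

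In the knockdown these 2 genes were called in 1 of 17 alternatives, the fit without shGPD1L replicate 3. Without shGPD1L replicate 3, HSPA1A (0.55, adjusted p = 0.0357) and HSPA1B (0.56, SE 0.0848, adjusted p = 0.0164) passed the test, 2 of the 10 genes against 1.80% of all genes tested called higher. The remaining shGPD1L values of 61.6 and 50.1 FPKM for HSPA1A and 103 and 91.0 FPKM for HSPA1B were higher than in every shNC library. The third library had 51.9 and 82.4 FPKM, also higher than in every shNC library. The HSPA1A difference hardly moved, from 0.52 (SE 0.108) with that library to 0.55 (SE 0.109) without it. The number of all genes called rose from 72 to 609.

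The other 8 genes had smaller differences, from -0.19 to 0.14. HSPA8 had 1243, 1186 and 850 FPKM in shGPD1L, against 1129, 1287 and 1201 FPKM in shNC. Its lowest value was that of shGPD1L replicate 3, and the log2 difference was -0.16 (95% confidence interval -0.51 to 0.19, adjusted p = 0.641) with that library and 0.011 without it. HSPB1 had 534, 479 and 429 FPKM in shGPD1L, against 444, 469 and 394 FPKM in shNC, groups that overlapped (0.14, adjusted p = 0.570). HSPD1 had 496, 521 and 397 FPKM in shGPD1L, against 540, 509 and 557 FPKM in shNC (-0.19, adjusted p = 0.454, and -0.075 without shGPD1L replicate 3). HSP90AA1 had 785, 789 and 630 FPKM in shGPD1L, against 799, 774 and 778 FPKM in shNC (-0.10 with all libraries and 0.0068 without shGPD1L replicate 3). Replicate 3 was the lowest shGPD1L library for 8 of the 10 genes. The remaining genes, HSPH1 (-0.091), DNAJB1 (0.067), BAG3 (0.085) and HSPE1 (0.046), had adjusted p values from 0.602 to 0.906. The highest shGPD1L value of HSPH1 lay just below its lowest shNC value, and the groups of the other 3 overlapped.

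The 10 genes together took 0.795%, 0.786% and 0.622% of the listed FPKM in shGPD1L, against 0.741%, 0.775% and 0.756% in shNC. They took 0.326%, 0.343% and 0.338% in OE, against 0.403%, 0.377% and 0.379% in Vector. The OE libraries were all below the Vector libraries, whereas the shGPD1L libraries lay on both sides of the shNC libraries.

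**Figure D2:**
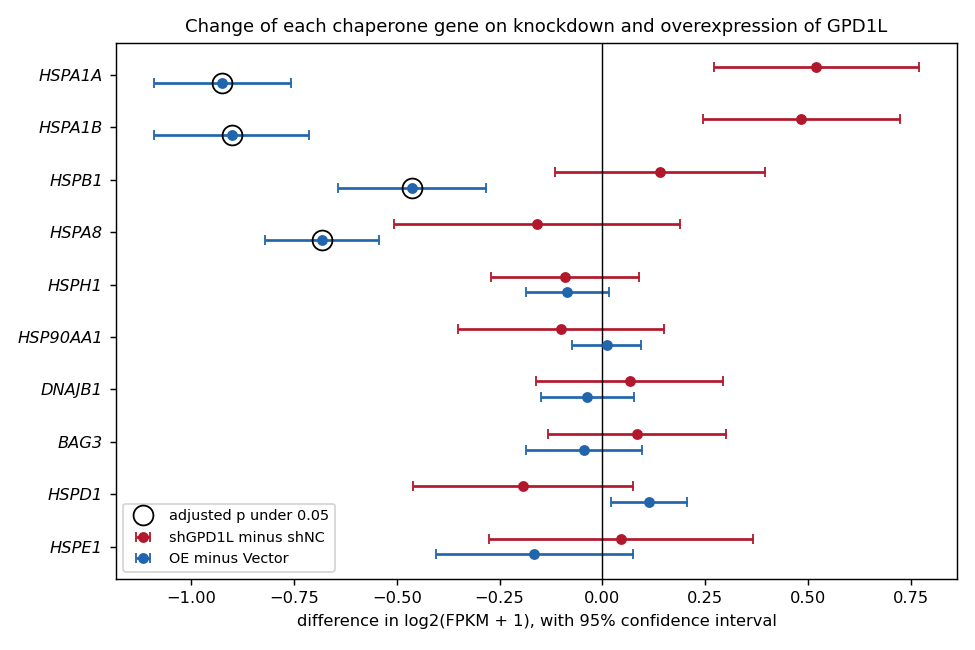
Difference in log2(FPKM + 1) of each chaperone gene (horizontal axis) for shGPD1L minus shNC (red) and OE minus Vector (blue), with 95% confidence intervals from limma (3 libraries per group); rings mark an adjusted p under 0.05. The ringed points are HSPA1A, HSPA1B, HSPB1 and HSPA8 in OE, and the red points of HSPA1A and HSPA1B lie on the other side of 0.

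Whether a gene moved differently under the 2 changes of GPD1L was tested as the OE minus Vector effect less the shGPD1L minus shNC effect, in 11208 genes tested in both tables. The 2 effects share no libraries. Of the 10 genes, 3 were called, all lower under overexpression, against 5.00% of all genes in that direction. With HSPA1A and HSPA1B summed into 1 gene, 2 were called. HSPA1A differed by -1.45 (SE 0.135, 95% confidence interval -1.74 to -1.15, adjusted p = 0.000152), the 8th lowest of the 11208. HSPA1B differed by -1.39 (SE 0.140, adjusted p = 0.000251), the 12th lowest. Both HSP70 genes thus stood near one end of the whole distribution. HSPB1 differed by -0.60 (SE 0.142, adjusted p = 0.0179), a call that was lost without OE replicate 1 (adjusted p = 0.0506). HSPA8 did not pass with all libraries (-0.52, adjusted p = 0.0628). It passed without shGPD1L replicate 3 (-0.69, adjusted p = 0.000972), with median-of-ratios scaling (-0.59, adjusted p = 0.0337) and with quantile normalization (-0.47, adjusted p = 0.0470). HSPD1 was the member with the largest positive difference (0.31, adjusted p = 0.123). It was called in 2 of the 23 alternatives (lowest adjusted p = 0.0155). The remaining 5 lay between -0.21 and 0.11, none called.

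**Figure D3:**
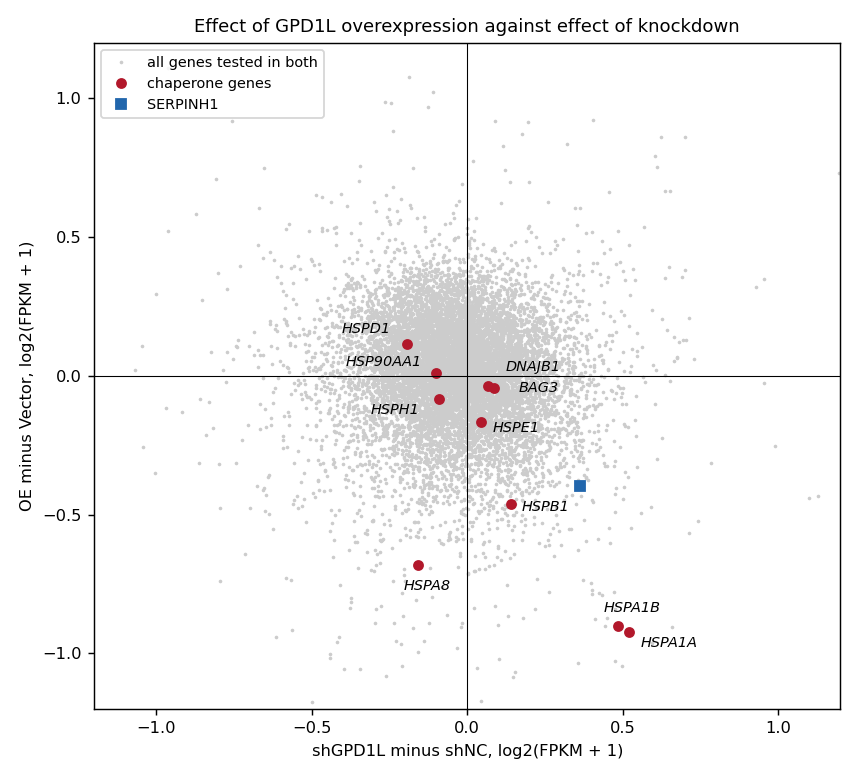
OE minus Vector against shGPD1L minus shNC, both in log2(FPKM + 1), for genes tested in both tables (grey; 23 of 11208 lie outside the axes), the 10 chaperone genes (red) and SERPINH1 (blue square). HSPA1A and HSPA1B lie at the lower right (0.52 and -0.92, and 0.48 and -0.90), HSPA8 and HSPB1 below 0 on the vertical axis, and the other 6 near the centre.

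HSPA8 led in 3 of the 4 groups, and HSPD1 in OE. In shNC the order was HSPA8 at 1206 FPKM, HSP90AA1 at 784, HSPD1 at 535 and HSPB1 at 435, none overlapping its neighbour, then HSPH1 and HSPE1 at 107 and 97.7, which overlapped. HSPA1B at 65.5 and DNAJB1 at 52.9 followed, and HSPA1A at 37.7 and BAG3 at 35.2 overlapped at the end. In shGPD1L HSPA8 (1093 FPKM) again came before HSP90AA1 (735), and HSPA1B (92.3) overlapped HSPH1 (101), which in turn overlapped HSPE1 (102). In OE HSPD1 led at 446 FPKM, before HSPA8 at 359 and HSP90AA1 at 306, with no overlap between these 3, and HSPA1A at 14.7 FPKM was lowest, below BAG3 at 21.0. In Vector HSPA8 at 577 FPKM led before HSPD1 at 412 and HSP90AA1 at 304, and BAG3 at 21.7 was lowest, below HSPA1A at 28.8. The order of HSPA8 and HSPD1, and that of HSPA1A and BAG3, was thus reversed in OE relative to Vector. The place of HSPA1A depends on how reads were shared with HSPA1B, which is not given. Added together the copies had 41.4 FPKM in OE and 79.2 FPKM in Vector, above BAG3 in both.

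The control lines themselves differed in level. The ratio of the shNC mean to the Vector mean was above 1 for all 10 genes: 2.71 for HSPB1, 2.58 for HSP90AA1, 2.29 for HSPH1, 2.11 for HSPE1, 2.09 for HSPA8, 1.63 for BAG3, and between 1.19 and 1.31 for DNAJB1, HSPA1A, HSPA1B and HSPD1. Over 11208 genes the median ratio was 1.01, and 6 of the 10 chaperone genes were above the 95th percentile of 1.49. The tables may have been normalized separately and no sample links them, so this is a description with no test, and what sets the levels apart was not tested.

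Among the genes themselves, profiles over the 12 libraries, each centred within its table, were closest for HSPA1A and HSPA1B (Pearson r = 0.99, a pair that shares most of its coding sequence) and HSPA1B and HSPB1 (0.93), and HSP90AA1 went with HSPD1 (0.89). HSPA1A and HSPD1 ran opposite (-0.56), as did BAG3 and HSPD1 (-0.63). With the mean profile of the 10, of which each gene is itself a part, the correlation was 0.90 for HSPA8, 0.88 for HSPB1, 0.78 for DNAJB1 and 0.77 for HSPH1, but 0.18 for BAG3 and 0.16 for HSPD1. The other genes with the most similar profiles were P4HB (0.96), H3F3A (0.96), SRSF2 (0.96), SPHK2 (0.95) and TONSL (0.95). These 5 were chosen by their profiles over the same libraries, so a difference of theirs in OE is set by that choice. SRSF2 overlaps MFSD11, and SPHK2 overlaps RPL18 and DBP, on opposite strands. Libraries of a group share their condition, so these correlations describe the 12 libraries and carry no test.

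Related genes were read from 9 lists of 83 genes. In the knockdown 0 of the 71 tested genes were called by limma, against 0.592% of all genes tested. At an unadjusted p under 0.05 there were 7, in both directions, and the share of all genes at that threshold is not given here. In OE 11 were called higher and 6 lower (gene identifiers). That is 23.6% of the 72 identifiers tested, close to the 22.4% called among all genes tested in OE (12.2% higher and 10.3% lower). The factors came first: HSF1, the main heat shock factor, was called higher in OE, with 43.1, 49.6 and 51.9 FPKM, against 42.1, 39.2 and 40.4 FPKM in Vector (0.24, adjusted p = 0.0425). The lowest OE library was just above the highest Vector library, and the call held in 1 of the 6 fits without a library. HSF2 (0.19, adjusted p = 0.0873), HSF4 (-0.16, adjusted p = 0.129) and HSBP1 (-0.18, adjusted p = 0.0868), which binds HSF1 trimers, were not called. In shGPD1L the HSF1 difference was 0.15 (adjusted p = 0.429). HSF1 overlaps DGAT1 on the opposite strand by 139 bases.

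The other HSP70 and HSP110 genes went in both directions. Of 5 tested identifiers in OE, the HSP110 relatives HSPA4 (0.22, adjusted p = 0.0168) and HSPA4L (0.26, adjusted p = 0.0401) were called higher and HSPA12A (-0.32, adjusted p = 0.0335) lower. Among all genes tested in OE, 12.2% were called higher and 10.3% lower. The differences of effects of HSPA4 (0.33, adjusted p = 0.0221) and HSPA4L (0.49, adjusted p = 0.00959) were also called, as were 1584 of all 11208 genes. Of 11 genes of HSP90 and its cochaperones, FKBP5 alone was called in OE (-0.28, adjusted p = 0.0207), against 22.4% of all genes tested. HSP90AB1, the constitutive HSP90, had 437 FPKM in OE and 428 FPKM in Vector (0.030, adjusted p = 0.577). The HSP70 cofactors, such as the nucleotide exchange factors of the BAG family, had 0 of 8 called by limma in OE (1 at an unadjusted p under 0.05). Among all genes tested in OE 22.4% were called, and the share at an unadjusted p under 0.05 is not given here. Of the 9 genes placed in the small heat shock protein list, HSPB11 alone had values (0.074 in OE, adjusted p = 0.339). Its placement there was by name, and its function was not tested.

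The J-domain proteins, which bring clients to HSP70, had 3 of 11 tested genes called higher in OE and 2 called lower, against 12.2% higher and 10.3% lower among all genes tested. DNAJA1 had 42.2, 44.9 and 44.9 FPKM in OE, against 52.2, 55.3 and 53.5 FPKM in Vector (-0.28, adjusted p = 0.00521). DNAJB5 was at 1.93 FPKM in OE and 3.04 FPKM in Vector (-0.48, adjusted p = 0.0393). Both fell, whereas the ribosome-bound DNAJC2 (24.9 FPKM in OE and 19.3 FPKM in Vector, 0.35, adjusted p = 0.00393) and DNAJC7 (61.7 FPKM in OE and 53.1 FPKM in Vector, 0.21, adjusted p = 0.00893) were called higher, as was DNAJB6 (0.18, adjusted p = 0.0351). DNAJC2 and DNAJC7 overlap listed genes on the opposite strand.

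The cytosolic chaperonin TRiC and prefoldin, which fold actin and tubulin, had 3 of 14 genes called in OE, all higher, against 12.2% of all genes tested. CCT8 (131 FPKM in OE and 112 FPKM in Vector, 0.22, adjusted p = 0.0161) and CCT4 (139 FPKM in OE and 120 FPKM in Vector, 0.20, adjusted p = 0.0218) had the largest differences among them, before CCT6A (0.15, adjusted p = 0.0326). All 14 were above 0 in OE (13 with median-of-ratios scaling), with a median of 0.12 against 0.024 over all genes tested, and 11 of 14 were below 0 in shGPD1L, with a median of -0.18 against -0.036. Without shGPD1L replicate 3, 10 of 14 were below 0, with a median of -0.053. PFDN2, which encodes a prefoldin subunit, had 91.0, 85.2 and 79.6 FPKM in shGPD1L, against 68.0, 65.04 and 63.7 FPKM in shNC. All shGPD1L libraries were above all shNC libraries, and the log2 difference was 0.37 (adjusted p = 0.0996), or 0.42 without shGPD1L replicate 3 (adjusted p = 0.0164). The differences of effects of PFDN2 (-0.33, adjusted p = 0.0245) and CCT4 (0.45, adjusted p = 0.0465) were called, in opposite directions. Of 11 other mitochondrial chaperone and protease genes, GRPEL2 (0.17, adjusted p = 0.0420) and DNAJA3 (0.17, adjusted p = 0.0241) were called higher in OE, against 12.2% of all genes tested.

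Among 7 other genes known to be induced by heat, SERPINH1, the collagen chaperone HSP47 of the endoplasmic reticulum, was called lower in OE. It had 50.7, 60.6 and 60.9 FPKM in OE, against 78.8, 78.3 and 70.5 FPKM in Vector (-0.40, adjusted p = 0.00979). In the knockdown it had 104, 113 and 101 FPKM in shGPD1L, against 80.1, 84.8 and 82.3 FPKM in shNC (0.36, adjusted p = 0.0998; 0.40 without shGPD1L replicate 3, adjusted p = 0.0210). The groups were apart in both tables, and the difference of effects was -0.76 (SE 0.112, adjusted p = 0.00218). UBB, a polyubiquitin gene, was called lower in OE with 446 FPKM, against 498 FPKM in Vector (-0.16, adjusted p = 0.0133), and the other 5 were not called. Called lower were thus 2 of 7, against 10.3% of all genes tested. Of the 15 genes of these lists named by rule, DNAJC2, DNAJC7, DNAJA1 and SERPINH1 were called in OE under every alternative and without each library, which were chosen for these lists after seeing the data. Without 1 library the calls of HSPA4L and GRPEL2 held in 0 of 6 fits, those of HSPA12A and DNAJB5 in 1, those of FKBP5 and DNAJA3 in 2, those of CCT4 and UBB in 3, that of HSPA4 in 4 and that of CCT8 in 5.

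**Figure D4:**
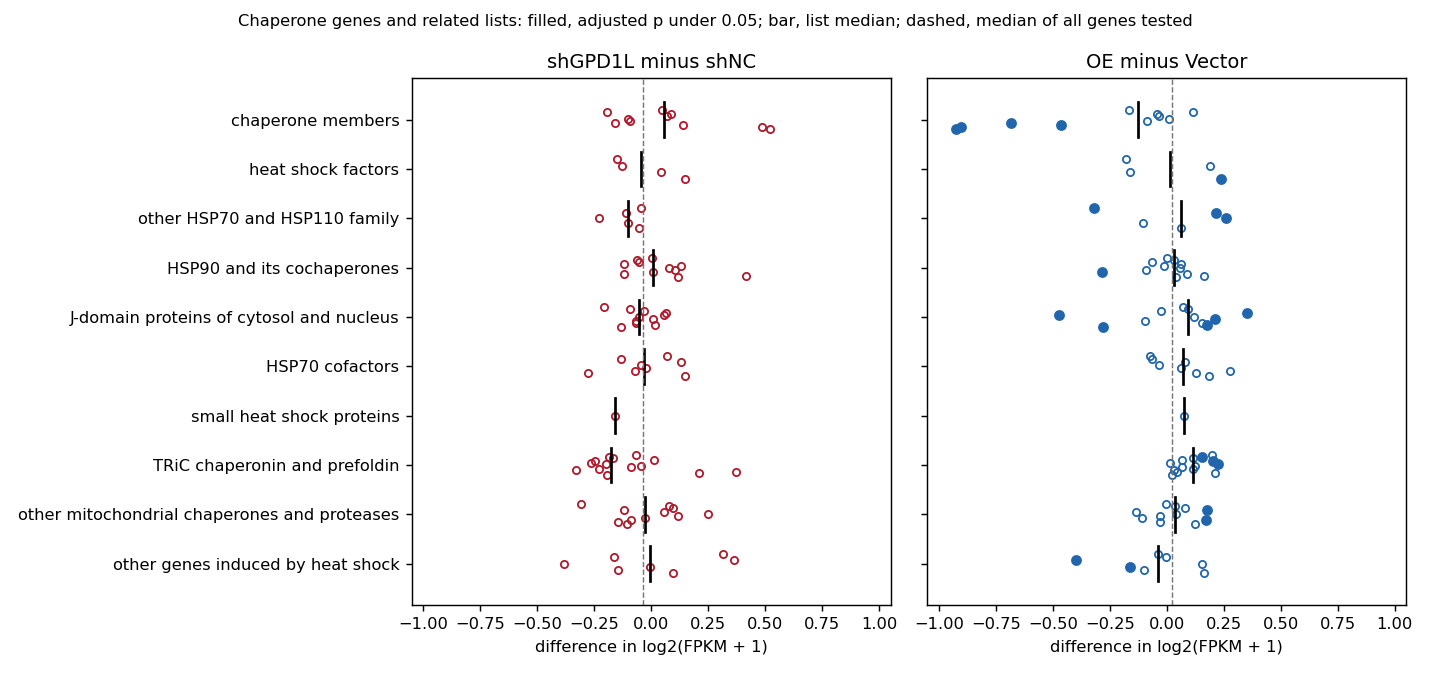
Differences in log2(FPKM + 1) of the 10 chaperone genes and of the tested genes of 9 related lists, for shGPD1L minus shNC (left) and OE minus Vector (right); filled points have an adjusted p under 0.05, black bars are list medians and the dashed line is the median of all genes tested. On the right the chaperone genes reach -0.92, farther from 0 than any gene of the other lists, and the TRiC and prefoldin genes all lie above 0 (13 of 14 with median-of-ratios scaling).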

How the data were processed

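SW480 libraries were made from poly(A) RNA, per the labels' protocols. Groups follow the sample titles, since the genotype labels give each replicate a different number within the gene's name. The authors deposited 1 table of FPKM values for each comparison. Per the submitters' processing notes, HISAT2, StringTie, DESeq2 and GRCh38 were used, with no version or role stated. DESeq2 was not run here, since the values are not counts. Low values share no common step (at most 2 of the 200 lowest genes had the same ratio), so the depth is unknown and no counting error can be given. Not given in the sources used here: annotation release, strandedness, and whether the tables were normalized together.

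Genes averaging 1 FPKM or more across a table's 6 libraries were tested on log2(FPKM + 1), a scale that understates changes of low genes, with limma 3.58.1 in R 4.3.3 (intensity trend, two-sided, Benjamini-Hochberg over all genes tested). All 10 chaperone genes passed in both tables. The difference of effects was fitted over 12 libraries with 4 group means. With 3 against 3 libraries, the smallest two-sided p of an exact permutation test is 0.1. The fits were tested on simulated data. There a log2 change of 0.5 was recovered for 39 of 100 genes in the knockdown and 84 of 100 in the overexpression. A change of 1 was recovered for 85 and 96 of 100. In such data a change of the size of HSPA1A or HSPA1B in shGPD1L could thus be missed. The simulated noise was drawn separately for each gene and library, so these rates may not carry over to libraries that shift as a whole. Coordinates, overlaps and transcripts are from GENCODE release 29, promoters from RefSeq GRCh38.p14, and figures from matplotlib 3.10.9 in Python 3.11.15. Same-numbered replicates did not vary together, so numbers were not taken to pair libraries. The members and lists were chosen with earlier results of these data known. Named genes were GPD1L, the members, the 4 genes of the heat shock factor list, up to 2 called genes per list and direction with groups apart, and the 5 most similar genes; CCT6A, DNAJB6, HSP90AB1, HSPB11 and PFDN2 were added after their values were seen. Alternatives changed the pseudocount (0.1 or 0.5), the filter (none, or 5 FPKM), the scaling (equal totals, median of ratios or quantiles) and the eBayes step (no trend, or robust), added a replicate block, summed HSPA1A with HSPA1B, or left out each library.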

Additional observations from a re-analysis of the deposited data

How the results depend on the processing

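HSPA1A, HSPA1B, HSPA8 and HSPB1 were called lower in OE under all 17 alternatives, with log2 differences from -0.999 to -0.87, -0.98 to -0.81, -0.72 to -0.62 and -0.53 to -0.39. The difference of effects was called for HSPA1A and HSPA1B under all 23. In the knockdown 72 genes were called, 25 with quantile normalization and 0 to 609 without 1 library (0 without shNC replicate 2 or 3, 609 without shGPD1L replicate 3), with 0 to 2 of the 10 chaperone genes. In OE 2740 genes were called, and 1550 (without Vector replicate 2) to 1980 without 1 library. For the difference of effects 1584 genes were called, and 790 (without OE replicate 1) to 2572 (without shGPD1L replicate 3) without 1 library, and 6 chaperone genes were called with quantile normalization (also HSPA8, HSPD1 and HSP90AA1). Equal totals, median-of-ratios scaling and quantile normalization put the share of OE calls that were higher at 71.4%, 46.1% and 49.6%, against 54.2%. In the knockdown that share was 25.9%, 28% and 32%, against 19.4%.

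With the replicate block 3 genes were called in the knockdown and 483 for the difference of effects, where HSPB1 was lost (adjusted p = 0.0511); no other call of a chaperone gene changed. Same-numbered libraries deviated with correlations of -0.016, -0.18 and -0.16 in the knockdown and 0.022, -0.061 and -0.036 in the overexpression, so the numbers are not read as pairs.

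Signs turned for some differences that were not called. In OE HSP90AA1 was -0.0091 with median-of-ratios scaling and -0.0041 to 0.025 without 1 library, DNAJB1 0.014 with equal totals and -0.067 to 0.0064 without 1 library, and BAG3 0.0044 with equal totals. The HSPH1 difference of effects was -0.058 with median-of-ratios scaling and -0.043 to 0.043 without 1 library. In the knockdown, without 1 library, HSPA8 ran from -0.26 to 0.011, HSP90AA1 from -0.16 to 0.0068 and HSPE1 from -0.094 to 0.18. The cause was not tested. The depth is unknown, 3 libraries a group limit the precision, and the knockdown rests on few libraries, 1 of which stands apart.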
